A study of Arabidopsis thaliana with 12 samples.

Results

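The nuclear photosystem and light-harvesting genes are 43 genes of Arabidopsis thaliana whose transcripts are made in the nucleus and whose proteins work in the thylakoid membrane of the chloroplast. They were chosen by gene identifier, by a rule that names no measured value, and comprise 4 LHCA genes, 9 genes of the major LHCB proteins, 5 of the minor LHCB proteins, 12 of photosystem I subunits, 5 of the oxygen-evolving complex, 5 of small photosystem II subunits and PSBS, and 3 of plastocyanin and the Rieske protein. All 43 were among the 21623 genes held by both tables, and all 43 passed the filter on low values that left 20623 genes for testing. Transcripts were measured by RNA sequencing in whole seedlings 7 days after germination. Col-0 seedlings (the wild type) and seedlings of the double mutant ap1/cal, which the methods place in the same background, stood for 24 h on plates with 1 mM sodium nitroprusside (SNP), which releases nitric oxide (NO), or on plates without it (Mock). Each of the 4 groups, Col-0 Mock, Col-0 SNP, ap1/cal Mock and ap1/cal SNP, held 3 libraries. AP1 and CAL, which the mutant lacks, specify flower meristems. SNP also carries iron and cyanide, and no depleted donor was among the groups, so that NO cannot be told apart from these.

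Photosystem II takes electrons from water and photosystem I passes them on towards NADP, and the cytochrome b6f complex with its Rieske protein and the mobile carrier plastocyanin joins them. Around both photosystems sit antenna proteins that bind chlorophyll a and b, with the LHCA proteins at photosystem I and the LHCB proteins at photosystem II, where LHCB1 to LHCB3 form the major trimers and LHCB4 to LHCB6 are single minor antennae. In green leaves these transcripts are among the most abundant of the nucleus, they rise in light together, and the GLK transcription factors are known as their activators. The values given here are the authors' normalized signal, which was taken as estimated reads per gene scaled by 1 factor per library. Members annotated with 1 transcript, such as CAB1, held whole multiples of their library's smallest recurring value in 100% of libraries, without scaling by gene length. Those with several transcripts, such as LHCB4.3 and PETC, did so in 0%, apart from PSBQ1 at 8.33%. Whether a further factor per gene entered those values was not tested. Depth, as estimated reads in units of 1e6, ran from 22.5 to 59.7 with a median of 32.9. A gene was called where the adjusted p of limma lay below 0.05 and the fold was at least 1.5, and changes are log2 fold changes of SNP against Mock on the log2(value + 1) scale, with their SE.

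As transcripts of green tissue the members were abundant. They held 13.1 ± 0.395% of the signal of a Col-0 Mock library and 14.5 ± 0.538% of that of an ap1/cal Mock library (SD, n = 3), and 24 to 28 of them stood among the 50 genes with the most signal in each Mock library. Per kilobase of exon, CAB1 and LHB1B2, which encode LHCB1, held the first ranks of the 43 in all 4 groups, at 342121 and 313531 in Col-0 Mock, and LHCB4.3 was last in all 4 groups, at 592 in Col-0 Mock. In the SNP libraries the members held 8.77 ± 0.0592% of the signal for Col-0 and 8.73 ± 0.337% for the mutant, and 12 to 18 of them were among the top 50. The ranges did not overlap, with 12.7 to 13.5% against 8.72 to 8.83% in Col-0 and 13.9 to 14.9% against 8.34 to 8.95% in ap1/cal. The summed signal of the members itself went from 3.53 ± 0.241 (Mock) to 3.33 ± 0.0760 (SNP) in Col-0, with 3.99 ± 0.385 and 3.91 ± 0.168 for the mutant (in 1e6, SD, n = 3), while the total signal of a library went from 26.9 to 38.01 and from 27.4 to 44.8 in the same unit. The smaller share thus stood beside a larger total and a summed signal whose ranges overlapped in ap1/cal, and in Col-0 too (3.26 to 3.70 against 3.28 to 3.42). In whole seedlings fewer green cells, less RNA of the members per cell and more signal from other genes cannot be told apart by this share.

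Most members did not pass the test with the required fold. In Col-0, 5 members were higher (11.6%) where 26.9% of all tested genes were called higher, and 2 were lower (4.65%) where 29.1% of all genes were called lower. In ap1/cal, 7 were higher (16.3%) against 29.8% of all genes, and 4 were lower (9.3%) against 33% of all genes. The members had median changes of -0.05 and -0.04 for Col-0 and ap1/cal, beside -0.02 and -0.04 for all tested genes. Their changes had an SD of 0.574 and 0.586 where those of all genes had 1.55 and 1.81. All tested genes include many of far lower signal than the members, and no set matched for signal was compared. With the adjusted p threshold alone, whatever the fold, 23 members (53.5%) passed in Col-0 and 27 (62.8%) in ap1/cal, beside 76% and 80.8% of all genes. The 3 SNP libraries lay wholly above or wholly below the 3 Mock libraries for 28 members (65.1%) in Col-0 and 29 (67.4%) in ap1/cal, beside 78.6% and 82.3% of all genes. CAB2, LHCB2.3, LHCB4.3, PSAK and PETC were called higher and LHB1B1 lower in both genotypes, CAB3 was called in Col-0 alone, LHCB2.1, LHCB4.2, PSAD2, PSAH1 and PETE1 in ap1/cal alone, and 31 members in neither. A call in one genotype alone does not show that the genotypes differ, which is tested further on.

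**Figure D1:**
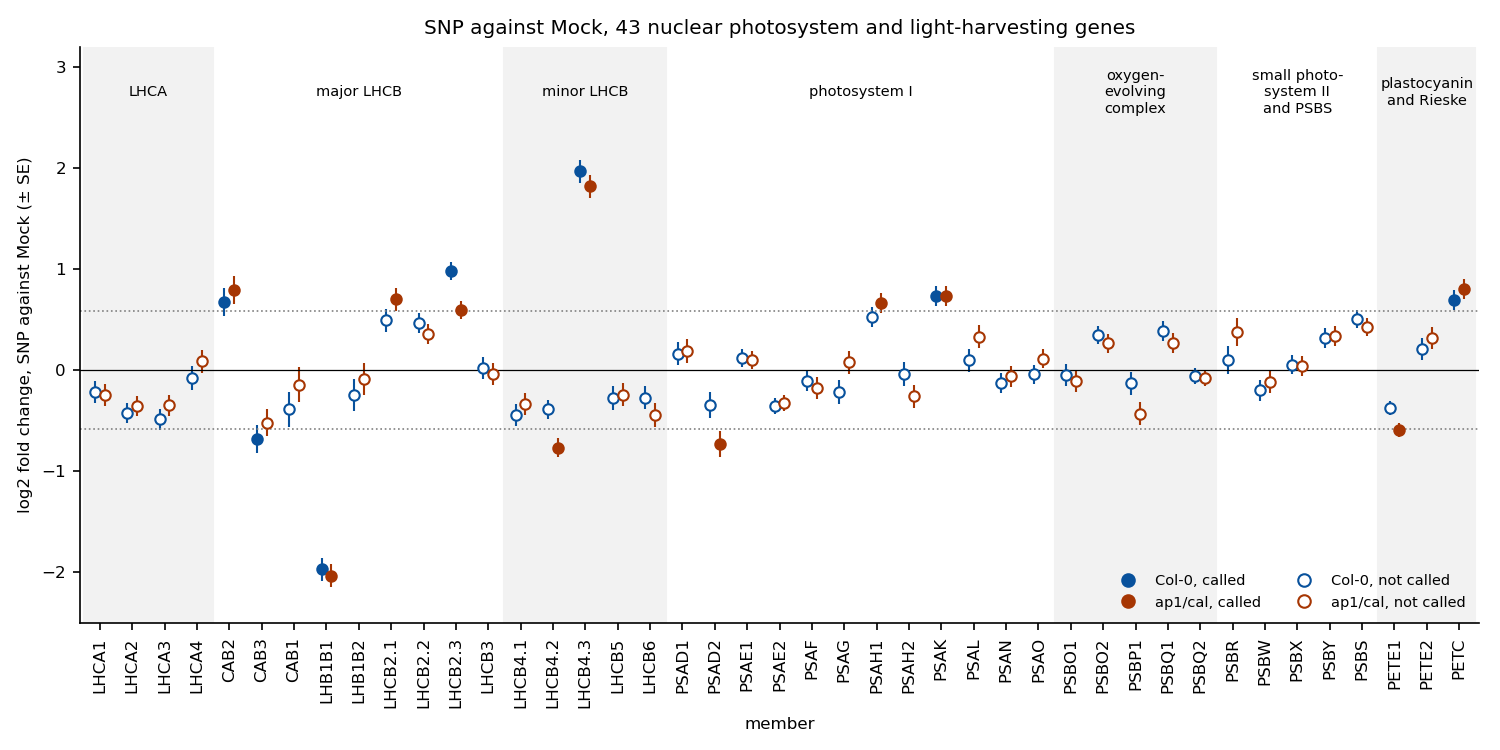
Log2 fold change of SNP against Mock for each of the 43 members, grouped by role, in Col-0 and ap1/cal. Points are fitted values with SE bars (3 libraries per group), filled where called, and the dotted lines mark a fold of 1.5. LHB1B1 at -1.97 and -2.04 and LHCB4.3 at 1.97 and 1.82 stand far outside the band that holds most members.

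These directions are relative to the scaling of the authors, which set the median change of all genes near 0. When each library was divided by its total instead, the median of all genes moved to -0.51 and -0.74 for Col-0 and ap1/cal, and that of the members moved with it to -0.54 and -0.75. Under that scaling 1 member was higher and 19 were lower in Col-0, beside 15.6% and 45.9% of all genes, and 1 was higher and 27 were lower in ap1/cal, beside 15.1% and 54.1% of all genes. Of all calls in the scaling of the authors 48.0% in Col-0 and 47.5% in ap1/cal were higher, and of those under library totals 25.3% and 21.9%. Of the members with a positive change, 12 of 19 in Col-0 and 17 of 21 in ap1/cal took a negative sign under library totals. LHB1B1 was called lower and LHCB4.3 higher in both genotypes under either scaling. CAB2, PSAK and PETC kept a positive sign in both genotypes but were not called under library totals (0.02 to 0.23, the lowest being PSAK in ap1/cal). Ratios between members within a library do not depend on a single factor per library. With the trend of each library with exon length and GC content removed, the members' medians were -0.31 and -0.29 while those of all genes were -0.0082 and 0.0084, whereas under library totals both medians fell. Under that setting 2 members were higher and 6 lower in Col-0, beside 25.1% and 28.0% of all genes, and 2 were higher and 8 lower in ap1/cal, beside 29.8% and 30.7% of all genes. The changes of PSAK and PETC in both genotypes, of CAB2 in Col-0 and of LHCB2.1, LHCB2.3 and PSAH1 in ap1/cal no longer reached a fold of 1.5.

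The 5 genes of LHCB1, the most abundant antenna protein of photosystem II, gave unlike responses. LHB1B1 fell about as far as any member rose. LHB1B1 (AT2G34430) stood at 85443, 72292 and 88355 in the Mock libraries of Col-0, whereas the SNP libraries gave 21911, 20179 and 20368. The mutant read 121974, 113287 and 137898 under Mock, compared with 32394, 27091 and 31523 under SNP. No SNP library came near a Mock library, and the change was -1.97 ± 0.11 in Col-0 (adjusted p = 2.63e-09) and -2.04 ± 0.11 in ap1/cal (adjusted p = 1.34e-09). LHB1B2 is its neighbour on chromosome 2 and is transcribed away from it. Col-0 libraries held LHB1B2 (AT2G34420) at 348757, 282983 and 351178 under Mock, compared with 275207, 287383 and 262329 under SNP. For ap1/cal these were 370726, 341196 and 423127 under Mock, then 349166, 352447 and 363662 under SNP. Here Mock and SNP libraries overlapped in both genotypes, with changes of -0.25 ± 0.16 and -0.09 ± 0.16, and 7.27% of the 75-base windows of LHB1B1 are also found in LHB1B2. All windows of LHB1B2 and those shared ones also lie in a further annotated locus, AT2G08665. That locus was listed for 0 of the 12 libraries, so reads credited to it, if any, are not shown. The remaining copies lie together on chromosome 1. For CAB2 (AT1G29920) the wild-type Mock libraries read 142378, 118614 and 137673, while its SNP libraries read 213564, 217250 and 205366. It gave 134509, 123672 and 155943 under Mock, whereas SNP gave 239258, 215934 and 261121, for the mutant. CAB2 was thus higher in every SNP library than in any Mock library, by 0.68 ± 0.14 (adjusted p = 0.000558) and 0.79 ± 0.14 (adjusted p = 0.000133). Wild-type signal of CAB3 (AT1G29910) was 218722, 173938 and 190823 under Mock, then 121438, 121730 and 118674 under SNP. Mutant libraries held it at 221834, 202039 and 258752 under Mock, as opposed to 158836, 150974 and 164031 under SNP. CAB3 was lower without overlap in both genotypes, at -0.68 ± 0.14 in Col-0 (adjusted p = 0.000457), where it was called, and at -0.52 ± 0.14 in ap1/cal (adjusted p = 0.00315), which lay under a fold of 1.5. CAB1 (AT1G29930) gave 457855, 366692 and 437880 for Col-0 under Mock, as opposed to 322237, 326035 and 313218 under SNP. With ap1/cal, Mock gave 451756, 424292 and 555763, while SNP gave 418307, 407027 and 464123. For CAB1 the changes of -0.39 ± 0.17 and -0.14 ± 0.17 did not pass the test (adjusted p = 0.0561 and adjusted p = 0.453), although the Col-0 libraries did not overlap. CAB1 and CAB2 share 7.53% and 7.02% of their windows with each other and CAB2 and CAB3 share 3.39% and 3.66%, so reads in those stretches could have been credited to either copy, and these values are uncertain to that degree.

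The shares of the summed LHCB1 signal, which is not scaled by gene length, moved too. CAB2 made up 11.5 ± 0.177% of it under Mock and 22.3 ± 0.0282% under SNP for Col-0, with 10.3 ± 0.0791% and 19.7 ± 0.845% for the mutant (SD, n = 3). LHB1B1 went from 7.09 ± 0.256% (Mock) to 2.19 ± 0.112% (SNP) in Col-0, with 9.26 ± 0.224% and 2.50 ± 0.183% for the mutant. The share of CAB3 went from 16.8 ± 0.866% to 12.7 ± 0.192% and from 16.9 ± 0.140% to 13.04 ± 0.248%. CAB1 and LHB1B2 together kept most of the signal, at 33.5 to 36.5% for CAB1 and 27.6 to 30.6% for LHB1B2 over all 12 libraries. The sum over the 5 genes changed by -0.29 and -0.15 on the log2 scale for Col-0 and the mutant, far less than LHB1B1 or CAB2 alone.

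**Figure D2:**
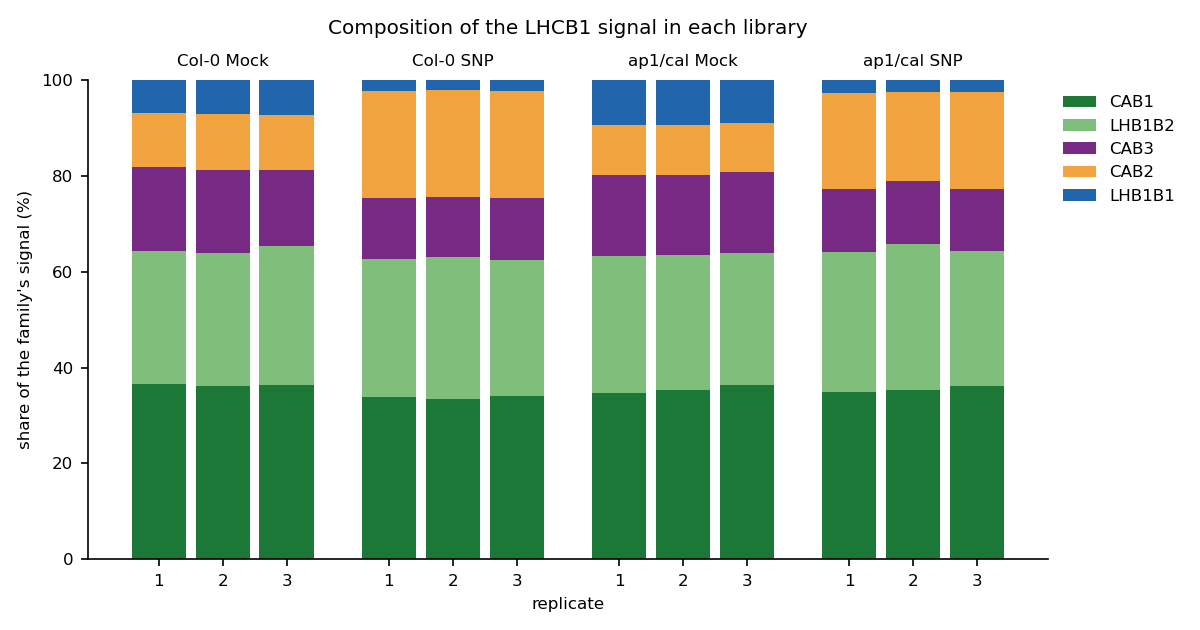
Share of the summed LHCB1 signal held by each of its 5 genes, as stacked bars in percent, for every library of the 4 groups. The CAB2 segment widens from about 11.5 to 22.3% (Col-0) or 10.3 to 19.7% (ap1/cal), while the LHB1B1 segment shrinks to 2.19 and 2.50%.

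The start regions of these genes are shown because neighbouring copies of one family gave opposite responses. Each run covers 250 bases before to 50 bases after the annotated start, 5′ to 3′ on the strand of the gene, read from the TAIR10.1 assembly with the RefSeq annotation. Capitals mark any of the sequences searched on both strands, namely the G-box CACGTG, the I-box GATAAG, the sequence CCAATC (found near GLK-bound sites), the evening element AAAATATCT, and AAAAATCT and AACAATCT, which the clock protein CCA1 is known to bind. The AAAAATCT sequence lies 78 bases before the start of CAB2, and in LHB1B1 it lies 18 bases before the start and again 10 bases after it. CCAATC lies 89 bases before the start of LHB1B2 and 91 bases before that of CAB1, which also holds AACAATCT 5 bases before and AAAAATCT 13 bases after its start, and CAB3 holds none of the 6. A match is a description of these letters and not evidence of binding.
LHB1B1, chr2:14524357-14524656, plus strand: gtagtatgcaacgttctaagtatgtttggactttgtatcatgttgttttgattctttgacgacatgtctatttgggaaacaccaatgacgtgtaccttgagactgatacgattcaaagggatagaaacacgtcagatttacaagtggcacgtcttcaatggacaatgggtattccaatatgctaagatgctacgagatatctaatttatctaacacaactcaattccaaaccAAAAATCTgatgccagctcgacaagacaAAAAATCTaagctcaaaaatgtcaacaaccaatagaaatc
LHB1B2, chr2:14523519-14523818, minus strand: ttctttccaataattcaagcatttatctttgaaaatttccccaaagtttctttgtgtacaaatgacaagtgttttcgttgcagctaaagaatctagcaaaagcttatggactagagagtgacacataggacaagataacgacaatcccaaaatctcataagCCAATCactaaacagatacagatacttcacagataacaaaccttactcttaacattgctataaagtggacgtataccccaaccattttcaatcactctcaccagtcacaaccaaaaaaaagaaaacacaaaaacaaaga
CAB1, chr1:10477635-10477934, plus strand: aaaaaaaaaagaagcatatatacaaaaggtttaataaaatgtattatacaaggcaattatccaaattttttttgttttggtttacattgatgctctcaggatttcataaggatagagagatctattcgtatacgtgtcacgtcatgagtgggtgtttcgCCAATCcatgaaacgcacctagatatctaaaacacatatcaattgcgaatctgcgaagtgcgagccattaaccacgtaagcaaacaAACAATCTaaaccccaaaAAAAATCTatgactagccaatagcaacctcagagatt
CAB2, chr1:10475920-10476219, minus strand: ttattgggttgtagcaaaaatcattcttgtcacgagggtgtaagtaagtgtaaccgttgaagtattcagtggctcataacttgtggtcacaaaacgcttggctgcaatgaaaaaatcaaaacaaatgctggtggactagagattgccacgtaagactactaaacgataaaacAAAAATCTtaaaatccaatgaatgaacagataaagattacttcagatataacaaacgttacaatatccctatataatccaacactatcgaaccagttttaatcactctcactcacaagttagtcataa
CAB3, chr1:10473453-10473752, minus strand: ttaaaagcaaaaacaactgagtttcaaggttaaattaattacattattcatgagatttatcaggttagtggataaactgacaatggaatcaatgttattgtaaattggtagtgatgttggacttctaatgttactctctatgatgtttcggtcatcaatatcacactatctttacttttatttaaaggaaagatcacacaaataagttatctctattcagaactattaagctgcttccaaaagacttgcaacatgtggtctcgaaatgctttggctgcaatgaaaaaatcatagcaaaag

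The 3 LHCB2 genes, whose proteins are the partners of LHCB1 in the trimers that move between photosystems, lay higher in SNP in the scaling of the authors, whereas under library totals LHCB2.1, LHCB2.2 and LHCB2.3 were at -0.00652, -0.03 and 0.48 in Col-0 and at -0.010, -0.35 and -0.11 in ap1/cal. Signal of LHCB2.1 (AT2G05100) reached 69556, 62815 and 70927 under Mock, with 98769, 91511 and 95455 under SNP, for Col-0. Mock values of the mutant were 75954, 67283 and 82402, its SNP values 118282, 115167 and 132661. It was higher in each SNP library than in each Mock library, by 0.49 ± 0.11 (adjusted p = 0.00128, under a fold of 1.5) for Col-0 and 0.70 ± 0.11 (adjusted p = 5.97e-05) for the mutant, where it was called. LHCB2.3 (AT3G27690) stood at 14222, 15145 and 15335 in the Mock libraries of Col-0, whereas the SNP libraries gave 31649, 27537 and 29044. Under Mock, ap1/cal stood at 19322, 17112 and 19380, beside 29393, 25433 and 29865 under SNP. LHCB2.3 was called in both, at 0.98 ± 0.09 (adjusted p = 3.06e-07) and 0.60 ± 0.09 (adjusted p = 3.09e-05). LHCB2.2, at 0.47 ± 0.10 and 0.36 ± 0.10, was under a fold of 1.5 in both genotypes with adjusted p of 0.000901 and 0.00526. The summed LHCB2 signal went from 129399 ± 6184 (Mock) to 189209 ± 8703 (SNP) in Col-0, with 147048 ± 13737 and 218392 ± 16302 for the mutant (SD, n = 3). Between LHCB2.1 and LHCB2.2, 14.5% and 19.1% of the windows are shared, and 37.5% of those of LHCB2.3 lie in a gene on the opposite strand whose own signal was 526 to 779. In ap1/cal the call of LHCB2.3 rested on the fold, which fell under 1.5 when Mock replicate 2 or SNP replicate 1 or 3 was left out (0.54, 0.57 and 0.56). LHCB3, the third protein of the trimers, changed least among the major antenna genes. Col-0 libraries held LHCB3 (AT5G54270) at 121022, 115862 and 124728 under Mock, compared with 123368, 122265 and 121663 under SNP. The mutant read 136552, 118918 and 135680 under Mock, compared with 132729, 121612 and 125936 under SNP. Its libraries overlapped in both genotypes, at 0.02 ± 0.11 and -0.04 ± 0.11, with 95% intervals from -0.21 to 0.26 and from -0.27 to 0.20.

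Among the minor antennae, LHCB4.3 rose while its paralogs lay lower in SNP. LHCB4 links the trimers to the photosystem II core, and LHCB4.3 is its divergent form, also called LHCB8. For LHCB4.3 (AT2G40100) the wild-type Mock libraries read 879, 777 and 916, while its SNP libraries read 3623, 3192 and 3261. For ap1/cal these were 846, 719 and 1023 under Mock, then 2880, 2939 and 3249 under SNP. The SNP libraries lay between 2880 and 3623 and the Mock libraries between 719 and 1023, which is a change of 1.97 ± 0.11 in Col-0 (adjusted p = 2.56e-09) and 1.82 ± 0.11 in ap1/cal (adjusted p = 4.00e-09). Wild-type signal of LHCB4.1 (AT5G01530) was 89909, 83142 and 93249 under Mock, then 66239, 66602 and 62435 under SNP. It gave 98971, 89104 and 110035 under Mock, whereas SNP gave 77797, 74941 and 82835, for the mutant. LHCB4.1 was lower without overlap in both genotypes but under a fold of 1.5, at -0.45 ± 0.11 (adjusted p = 0.00192) and -0.34 ± 0.11 (adjusted p = 0.011). LHCB4.2 (AT3G08940) gave 42643, 39354 and 43037 for Col-0 under Mock, as opposed to 31848, 31097 and 32479 under SNP. Mutant libraries held it at 52720, 46432 and 55000 under Mock, as opposed to 31058, 27475 and 31914 under SNP. LHCB4.2 stood at -0.39 ± 0.09 for Col-0 (adjusted p = 0.00181), not called, and was called lower in ap1/cal at -0.77 ± 0.09 (adjusted p = 4.02e-06). In spite of its rise LHCB4.3 made up only 3.35 ± 0.200% of the LHCB4 signal of the Col-0 SNP libraries and 2.71 ± 0.113% of that of the ap1/cal ones, from 0.652 ± 0.0196% and 0.566 ± 0.0453% in Mock (SD, n = 3). No 75-base window of the 3 LHCB4 genes is found exactly in another annotated gene.

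The start regions of LHCB4.1 and LHCB4.3, whose changes had opposite signs, are given in the same form. LHCB4.1 holds a G-box 74 bases before its start, CCAATC at 194 and 35 bases before it and an I-box 40 bases after it. LHCB4.3 holds none of the 6 sequences.
LHCB4.1, chr5:208616-208915, plus strand: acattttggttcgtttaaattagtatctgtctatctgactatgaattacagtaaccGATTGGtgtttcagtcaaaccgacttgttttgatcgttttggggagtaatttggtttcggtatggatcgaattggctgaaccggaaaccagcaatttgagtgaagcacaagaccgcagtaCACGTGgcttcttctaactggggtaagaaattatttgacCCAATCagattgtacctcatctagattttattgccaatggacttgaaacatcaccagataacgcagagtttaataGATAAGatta
LHCB4.3, chr2:16745378-16745677, plus strand: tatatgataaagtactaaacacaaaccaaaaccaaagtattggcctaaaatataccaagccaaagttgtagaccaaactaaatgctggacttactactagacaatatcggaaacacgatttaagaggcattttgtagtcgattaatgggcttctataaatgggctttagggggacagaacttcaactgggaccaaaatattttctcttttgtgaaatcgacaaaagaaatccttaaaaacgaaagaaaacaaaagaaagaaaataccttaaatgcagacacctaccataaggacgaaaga

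LHCB5 and LHCB6, the other minor antennae, were lower without overlap in both genotypes and were not called in either. Signal of LHCB5 (AT4G10340) reached 141180, 124287 and 140713 under Mock, with 116285, 109064 and 109806 under SNP, for Col-0. With ap1/cal, Mock gave 148531, 135067 and 159071, while SNP gave 128076, 117932 and 127443. LHCB5 changed by -0.28 ± 0.12 (adjusted p = 0.044) and -0.24 ± 0.12 (adjusted p = 0.0676). LHCB6 changed by -0.27 ± 0.12 (adjusted p = 0.049) and -0.44 ± 0.12 (adjusted p = 0.00326). Summed over the 5 minor antenna genes, the signal went from 373525 ± 21387 (Mock) to 300477 ± 7510 (SNP) in Col-0, with 421310 ± 39883 and 325939 ± 19586 for the mutant (SD, n = 3), and no SNP sum reached a Mock sum of the same genotype.

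**Figure D3:**
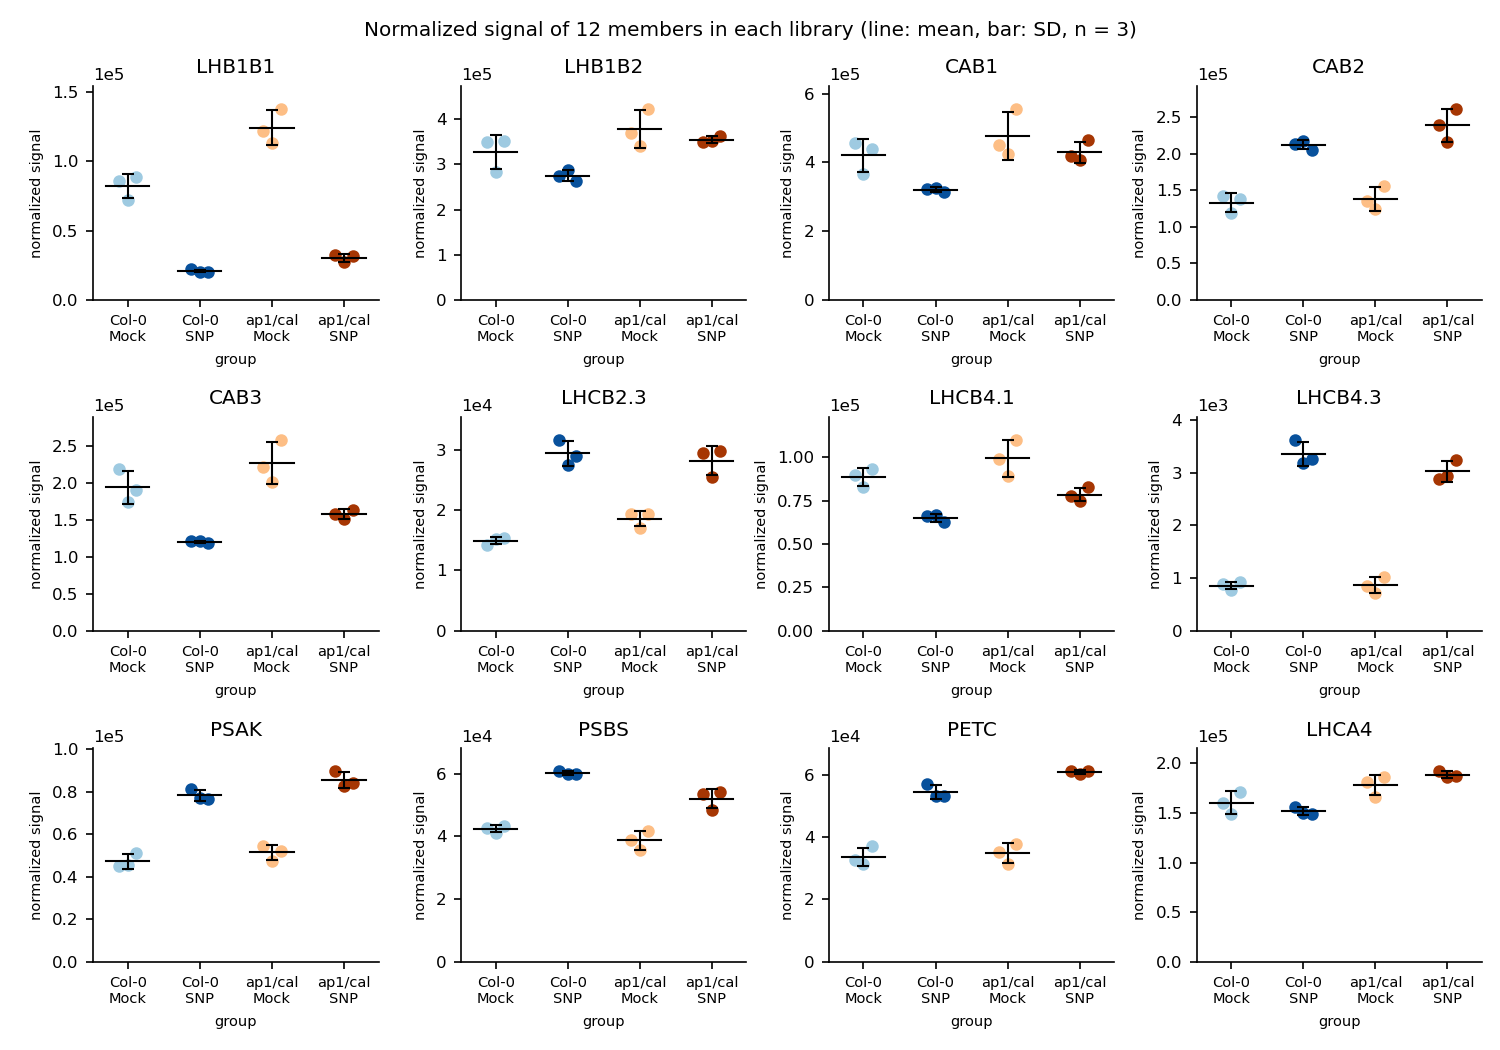
Normalized signal of 12 members in every library of the 4 groups, each panel on a linear axis from 0. Points are libraries, lines are means and bars are SD (n = 3). LHB1B1 stands at 32394 or less in all SNP libraries, LHB1B2 overlaps between Mock and SNP, and LHCB4.3 stands at 2880 or more in all SNP libraries.

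None of the 4 LHCA genes, which encode the antenna of photosystem I, was called in either genotype. LHCA3 (AT1G61520) stood at 113232, 102326 and 117436 in the Mock libraries of Col-0, whereas the SNP libraries gave 81540, 78529 and 77286. Mock values of the mutant were 120332, 108967 and 128786, its SNP values 94516, 93209 and 93061. LHCA3 had the largest mean change of the 4, -0.49 ± 0.11 in Col-0 (adjusted p = 0.000949) and -0.35 ± 0.11 in ap1/cal (adjusted p = 0.00851), with all SNP libraries below all Mock libraries. LHCA1 and LHCA2 were lower without overlap as well, LHCA1 at -0.22 ± 0.11 and -0.25 ± 0.11 and LHCA2 at -0.42 ± 0.10 and -0.36 ± 0.10. Col-0 libraries held LHCA4 (AT3G47470) at 160475, 148620 and 171569 under Mock, compared with 156425, 149785 and 148906 under SNP. Under Mock, ap1/cal stood at 180948, 166547 and 185800, beside 192422, 186248 and 186814 under SNP. LHCA4 overlapped in Col-0 and lay slightly higher in the ap1/cal SNP libraries, with changes of -0.08 ± 0.12 and 0.09 ± 0.12 that did not pass the test (adjusted p = 0.568 and adjusted p = 0.513). The LHCA signal as a sum went from 479536 ± 26390 (Mock) to 399518 ± 8183 (SNP) in Col-0, with 534507 ± 37494 and 475485 ± 12193 for the mutant (SD, n = 3).

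Of the 12 photosystem I subunit genes, PSAK was called higher in both genotypes, and PSAH1 was called higher and PSAD2 lower in ap1/cal. PSAK encodes a small membrane subunit at the edge that faces LHCA2 and LHCA3. For PSAK (AT1G30380) the wild-type Mock libraries read 44835, 45396 and 51215, while its SNP libraries read 81161, 76933 and 76474. The mutant read 54513, 47535 and 52103 under Mock, compared with 89706, 82383 and 84095 under SNP. It rose by 0.73 ± 0.10 (adjusted p = 1.21e-05) for Col-0 and 0.73 ± 0.10 (adjusted p = 9.72e-06) for the mutant, with no overlap. PSAH, the docking site for phosphorylated antenna trimers, is encoded by a pair of genes. Wild-type signal of PSAH1 (AT3G16140) was 19555, 17474 and 20180 under Mock, then 28749, 26401 and 26983 under SNP. For ap1/cal these were 20653, 18704 and 23961 under Mock, then 32408, 31788 and 35511 under SNP. PSAH1 was higher in all SNP libraries, by 0.52 ± 0.10 (adjusted p = 0.00029, under a fold of 1.5) and 0.66 ± 0.10 (adjusted p = 3.17e-05), although in ap1/cal the change was 0.58 without Mock replicate 2, short of the required fold, and -0.050 under library totals. PSAH2 (AT1G52230) gave 23995, 22493 and 24287 for Col-0 under Mock, as opposed to 24391, 20418 and 24274 under SNP. It gave 25281, 22884 and 25659 under Mock, whereas SNP gave 23588, 17074 and 21489, for the mutant. PSAH2 overlapped in both genotypes, at -0.04 ± 0.12 and -0.26 ± 0.12. PSAH1 shares 48.1% of its windows with a gene on the opposite strand and PSAH2 15.9%, and both values are uncertain to that degree. The gene opposite PSAH1 was listed for 0 libraries, and that opposite PSAH2 had a signal of 0 to 46.2.

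PSAD and PSAE form the ferredoxin-docking side of photosystem I, and each is encoded by a pair. Signal of PSAD1 (AT4G02770) reached 58812, 52056 and 55767 under Mock, with 65076, 59061 and 62403 under SNP, for Col-0. Mutant libraries held it at 64054, 58489 and 77020 under Mock, as opposed to 76203, 69287 and 80887 under SNP. PSAD1 did not pass the test, at 0.16 ± 0.12 and 0.19 ± 0.12, although its Col-0 libraries did not overlap. PSAD2 (AT1G03130) stood at 19618, 19828 and 18999 in the Mock libraries of Col-0, whereas the SNP libraries gave 15265, 14273 and 16450. With ap1/cal, Mock gave 26528, 22242 and 29689, while SNP gave 17610, 12676 and 17070. PSAD2 was lower in every SNP library, at -0.35 ± 0.13 (adjusted p = 0.0244, under a fold of 1.5) for Col-0 and -0.73 ± 0.13 (adjusted p = 0.000129) for the mutant. Its call in ap1/cal rested partly on SNP replicate 2, which was the lowest library, and without it the change was -0.58, short of the required fold. Col-0 libraries held PSAE1 (AT4G28750) at 41196, 39092 and 43993 under Mock, compared with 46842, 43857 and 44326 under SNP. Mock values of the mutant were 46390, 41631 and 47516, its SNP values 51304, 46936 and 47180. PSAE1 overlapped in both genotypes, at 0.12 ± 0.09 and 0.10 ± 0.09. For PSAE2 (AT2G20260) the wild-type Mock libraries read 11380, 11793 and 12719, while its SNP libraries read 9215, 9428 and 9378. Under Mock, ap1/cal stood at 14098, 12730 and 12937, beside 11823, 9803 and 10231 under SNP. PSAE2 was lower without overlap and under a fold of 1.5, at -0.36 ± 0.08 (adjusted p = 0.00119) and -0.32 ± 0.08 (adjusted p = 0.00217). Opposite-strand overlap covers 26.7% of the windows of PSAE1, from a gene with a signal of at most 5.76.

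The remaining photosystem I subunits stayed under a fold of 1.5. Wild-type signal of PSAO (AT1G08380) was 64453, 62334 and 69362 under Mock, then 65922, 62090 and 62670 under SNP. The mutant read 73628, 66275 and 75339 under Mock, compared with 80031, 75057 and 77628 under SNP. PSAO, a small subunit near the docking site of the trimers, had the smallest mean change of the 12, at -0.04 ± 0.09 and 0.11 ± 0.09, and overlapped in both genotypes. PSAF, which binds plastocyanin, changed by -0.10 ± 0.11 and -0.18 ± 0.11, and PSAN, on the lumen side, by -0.13 ± 0.10 and -0.06 ± 0.10, without passing the test. PSAL, near PSAH, was at 0.10 ± 0.11 and, for the mutant, 0.33 ± 0.11 (adjusted p = 0.016). PSAG, an anchor of the LHCA belt, was at -0.22 ± 0.12 and 0.08 ± 0.12, neither of which passed, and 57.4% of its windows are overlapped by an opposite-strand gene whose own signal was 5.46 to 22.7.

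The 5 genes of the oxygen-evolving complex, the lumenal cap that stabilises the manganese cluster, were called in neither genotype. PSBQ1 (AT4G21280) gave 43515, 42055 and 44142 for Col-0 under Mock, as opposed to 59040, 53571 and 56750 under SNP. For ap1/cal these were 50855, 44390 and 53397 under Mock, then 62762, 54252 and 62248 under SNP. PSBQ1 had the largest mean change, 0.38 ± 0.10 in Col-0 (adjusted p = 0.00322) and 0.27 ± 0.10 in ap1/cal (adjusted p = 0.0225), with every SNP library above every Mock library. Signal of PSBQ2 (AT4G05180) reached 33963, 33579 and 35917 under Mock, with 35071, 31700 and 32536 under SNP, for Col-0. It gave 41066, 36990 and 38517 under Mock, whereas SNP gave 37871, 37413 and 34997, for the mutant. Its paralog PSBQ2 had the smallest mean change, at -0.06 ± 0.08 and -0.08 ± 0.08, and overlapped in both genotypes. PSBO1 (AT5G66570) stood at 114660, 113311 and 125887 in the Mock libraries of Col-0, whereas the SNP libraries gave 116892, 114269 and 111286. Mutant libraries held it at 136663, 124015 and 142876 under Mock, as opposed to 129892, 119667 and 125130 under SNP. PSBO1, the main form of the manganese-stabilising protein, likewise overlapped, at -0.05 ± 0.11 and -0.11 ± 0.11. Col-0 libraries held PSBO2 (AT3G50820) at 34026, 35218 and 37317 under Mock, compared with 47121, 43920 and 44665 under SNP. With ap1/cal, Mock gave 43765, 37929 and 45356, while SNP gave 52037, 49176 and 51073. PSBO2 was higher without overlap at 0.35 ± 0.09 (adjusted p = 0.00318) and 0.27 ± 0.09 (adjusted p = 0.0155). PSBP1 was at -0.13 ± 0.11 in Col-0, with overlap, and at -0.43 ± 0.11 in ap1/cal (adjusted p = 0.00275), without it.

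PSBS, which senses lumen acidity and switches the antenna to heat dissipation, was the largest mover of the small photosystem II genes but stayed under a fold of 1.5. For PSBS (AT1G44575) the wild-type Mock libraries read 42804, 41158 and 43239, while its SNP libraries read 60868, 59875 and 59802. Mock values of the mutant were 38918, 35556 and 41672, its SNP values 53477, 48438 and 54159. All SNP libraries lay above all Mock libraries, by 0.51 ± 0.09 (adjusted p = 0.000161) and 0.43 ± 0.09 (adjusted p = 0.000574). Wild-type signal of PSBX (AT2G06520) was 42206, 38848 and 45507 under Mock, then 45317, 42548 and 43481 under SNP. Under Mock, ap1/cal stood at 44716, 40280 and 48233, beside 46611, 43587 and 46633 under SNP. PSBX, a small membrane subunit, changed least, at 0.06 ± 0.09 and 0.04 ± 0.09, with overlap in both genotypes. PSBY was higher without overlap at 0.32 ± 0.10 and 0.34 ± 0.10, PSBR overlapped in Col-0 at 0.10 ± 0.14 and lay higher in ap1/cal at 0.38 ± 0.14 (adjusted p = 0.0202), and PSBW overlapped at -0.20 ± 0.10 and -0.12 ± 0.10.

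The Rieske gene PETC, whose iron-sulphur protein takes electrons from plastoquinol in the cytochrome b6f complex, was called higher in both genotypes. PETC (AT4G03280) gave 32611, 31542 and 37073 for Col-0 under Mock, as opposed to 57150, 53309 and 53158 under SNP. The mutant read 35406, 31545 and 37980 under Mock, compared with 61315, 60209 and 61198 under SNP. It rose by 0.70 ± 0.10 (adjusted p = 1.78e-05) and 0.80 ± 0.10 (adjusted p = 3.58e-06), and the groups did not overlap. Plastocyanin is encoded by PETE1 and PETE2, of which PETE1 ranked 42 of the 43 per kilobase in all 4 groups. Signal of PETE2 (AT1G20340) reached 95124, 83597 and 93736 under Mock, with 108028, 101448 and 104709 under SNP, for Col-0. For ap1/cal these were 94309, 84961 and 102429 under Mock, then 117118, 110329 and 122934 under SNP. PETE2 lay higher in every SNP library, at 0.21 ± 0.11 (adjusted p = 0.106) for Col-0 and 0.32 ± 0.11 (adjusted p = 0.0181) for the mutant, and was called in neither. PETE1 (AT1G76100) stood at 3412, 3611 and 3727 in the Mock libraries of Col-0, whereas the SNP libraries gave 2820, 2645 and 2823. It gave 4175, 3874 and 4307 under Mock, whereas SNP gave 2909, 2563 and 2703, for the mutant. PETE1 was lower in every SNP library, at -0.37 ± 0.07 (adjusted p = 0.000215) for Col-0 and -0.60 ± 0.07 (adjusted p = 2.37e-06) for the mutant. The ap1/cal call of PETE1 stood at the required fold and fell short of it without Mock replicate 3 (-0.56) or SNP replicate 2 (-0.55).

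Since ratios within a library are free of any single factor per library, 8 pairs of paralogous members were compared by their log2 ratio. They are not free of a trend with exon length or GC content, and the ratios were not recomputed with that trend removed. Paralogs can differ in exon length, as PSAH1 with 1300 bases and PSAH2 with 702. Nor are the ratios free of a further factor per gene and library, should the values hold one. For PSBQ2, PETE1, LHCB4.2 and LHCB4.3, 0% of libraries held a whole multiple of the library's smallest recurring value, and for PSBQ1 8.33%. Library labels were permuted within genotype in a two-sided exact permutation test with 400 arrangements, in which 0.005 is the smallest p. In 7 of the 8 pairs the ratio moved in both genotypes without overlap and p was 0.005, or 0.00571 after Benjamini-Hochberg adjustment over the 8 pairs. How often other gene pairs separate in this way was not computed, so the count of 7 does not set paralogs apart. Separation was common for single genes, at 78.6% (Col-0) and 82.3% (ap1/cal) of those tested. The ratio of PSAD1 to PSAD2 rose from 2.85 to 4.06 for Col-0 and from 2.54 to 4.82 for the mutant, that is by 0.51 and 0.92 on the log2 scale. PSAH1 to PSAH2 went from 0.807 to 1.19 and from 0.854 to 1.62, or by 0.56 and 0.92. The ratio of PSAE1 to PSAE2 moved by 0.48 and 0.43, and that of PSBQ1 to PSBQ2 by 0.44 and 0.35. PSBO1 to PSBO2 moved the other way, by -0.40 and -0.37, and PETE1 to PETE2 by -0.58 and -0.91. In the LHCB4 family the ratio of LHCB4.1 to LHCB4.3 fell from 104 to 19.4 for Col-0, and from 116 to 26.0 for the mutant. LHCB4.1 to LHCB4.2 was the exception, with -0.06 in Col-0, where the libraries overlapped, and 0.43 in ap1/cal (exact permutation p = 0.085). Whether a ratio moved further in one genotype was not tested. The pairs were chosen with results known, so the p-values describe them and are not independent support.

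**Figure D4:**
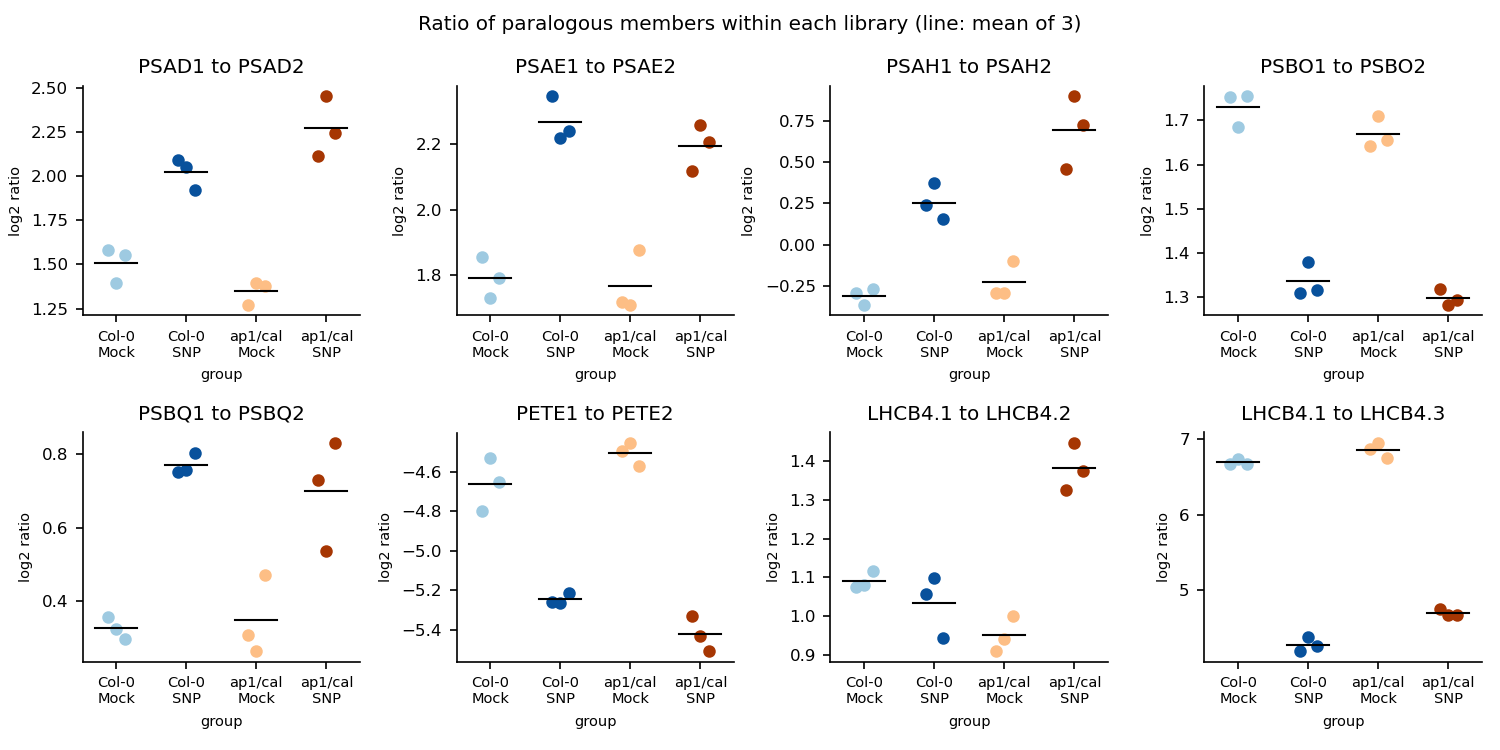
Log2 ratio of the signal of 2 paralogous members within each library, 1 panel per pair and 1 point per library, with the mean of 3 as a line. In every pair but LHCB4.1 to LHCB4.2 the SNP points lie on one side of the Mock points in both genotypes, and LHCB4.1 to LHCB4.3 shows the widest gap, from about 6.69 to 4.28 in Col-0.

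The responses of the genotypes were compared as a difference of the changes, ap1/cal minus Col-0. None of the 43 members was called more positive, where 7.6% of all genes were, and none more negative, where 6.97% of all genes were. At an unadjusted p below 0.05 there were 3 members (6.98%), LHCB2.3, LHCB4.2 and PETE1, beside 7500 of all 20623 tested genes. With the adjusted p threshold alone there was 1 (2.33%), LHCB2.3, at -0.38 ± 0.13 (adjusted p = 0.0461), which rose less in ap1/cal. By that threshold 2824 of all genes were more positive and 1993 more negative. LHCB4.2 was at -0.38 ± 0.13 (adjusted p = 0.053). The differences ran from -0.39 for PSAD2 to 0.29 for PSAG, with a median of 0.02, and the 95% intervals of all members lay between -0.78 and 0.77. For members at the ends of that range the interval thus included differences of a fold of 1.5 or more. The sign of the change was the same in both genotypes for 39 of the 43 members. The levels themselves come from 2 tables that were normalized separately and were not compared between genotypes.

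Across all 43 start regions the searched sequences were counted and set beside the 27443 start regions of the same length of nuclear protein-coding genes. The I-box stood in 20 members (46.5%) against 14.6% of all, CCAATC in 17 (39.5%) against 12.3%, and the G-box in 14 (32.6%) against 7.7%. AAAAATCT was found in 6 members (14.0%) against 7.9%, AACAATCT in 2 (4.7%) against 2.2%, and the evening element in none against 2.8%. These shares describe where the letters occur and were given no test. The median change of the 17 members with CCAATC was -0.08 for Col-0 and for ap1/cal alike, for the 14 with the G-box -0.04 and 0.00, for the 20 with the I-box -0.04 and 0.10, and for the 8 with none of the 6 sequences -0.05 and 0.00. It was -0.10 and 0.01 for the 6 with AAAAATCT, and -0.37 and -0.23 for CAB1 and PSAE2, which hold AACAATCT.

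The lists of other genes that follow were tested in the scaling of the authors alone. Both GLK genes, which activate antenna genes, fell, and GLK2 fell further than any member. Col-0 libraries held GLK2 (AT5G44190) at 3946, 3467 and 3602 under Mock, compared with 387, 543 and 603 under SNP. Mutant libraries held it at 3707, 3204 and 3487 under Mock, as opposed to 438, 340 and 407 under SNP. The change of GLK2 was -2.87 ± 0.14 (adjusted p = 5.91e-10) and -3.14 ± 0.14 (adjusted p = 1.58e-10), and GLK1 stood at 2160 to 2423 in Col-0 Mock against 661 to 679 in Col-0 SNP, a change of -1.79 ± 0.09, and was called lower in ap1/cal as well. HY5, a light-signalling factor that binds G-boxes, rose by 1.78 ± 0.12 and 1.80 ± 0.12, and GUN1, a chloroplast protein of plastid-to-nucleus signalling, fell by 1.42 and 1.62 on the log2 scale. Of these 4 regulators 1 was higher and 3 were lower in each genotype, with medians of -1.61 and -1.56.

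Most of the other light-harvesting superfamily genes were called higher. Among 10 such genes, Col-0 had 7 higher and 0 lower calls and ap1/cal 6 and 0, with medians of 0.73 and 0.90. The early light-induced proteins ELIP1 and ELIP2, which bind pigments under light stress, were the furthest. For ELIP2 (AT4G14690) the wild-type Mock libraries read 303, 254 and 352, while its SNP libraries read 19906, 18319 and 17095. With ap1/cal, Mock gave 160, 175 and 179, while SNP gave 11786, 9949 and 12178. ELIP2 thus rose by 5.93 ± 0.11 (adjusted p = 2.31e-13) and 6.03 ± 0.11 (adjusted p = 9.49e-14), and ELIP1 by 4.92 ± 0.08 and 5.17 ± 0.08. LHCB7, a rarely expressed relative of the antenna genes, rose by 1.76 ± 0.10 and 1.77 ± 0.10. The one-helix protein OHP1, which serves photosystem assembly, rose by 1.36 ± 0.10 and 1.30 ± 0.10. LIL3.1, which holds enzymes of chlorophyll synthesis at the membrane, changed least in Col-0 (0.12 ± 0.09, against -0.35 ± 0.09 in the mutant), and the stress-enhanced protein SEP1 least in ap1/cal (0.23 ± 0.10).

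Of the chlorophyll synthesis genes 2 of 13 were higher and 3 lower in Col-0, 0 higher and 6 lower in ap1/cal, at medians of -0.20 and -0.55. PORB, which reduces protochlorophyllide in light, was the furthest. Wild-type signal of PORB (AT4G27440) was 15076, 17777 and 15834 under Mock, then 453, 711 and 617 under SNP. Mock values of the mutant were 19486, 18616 and 18698, its SNP values 902, 630 and 914. Its change was -4.79 ± 0.16 (adjusted p = 1.36e-11) and -4.56 ± 0.16 (adjusted p = 1.27e-11). GUN4 and HEMA1, an activator and an early enzyme of the pathway, were the pair called higher in Col-0, at 0.79 ± 0.08 and 0.71 ± 0.09. CHLM, a methyltransferase, changed least in Col-0 (0.00 ± 0.08), and CRD1, the cyclase subunit, least in ap1/cal (0.09 ± 0.08). Of 8 genes that target, insert or phosphorylate antenna proteins, 0 were higher and 1 lower in Col-0 and 0 higher and 3 lower in ap1/cal (medians -0.24 and -0.16). The signal recognition particle subunit CPSRP43, which carries antenna proteins to the membrane, was lower in both, at -0.76 ± 0.09 and -0.64 ± 0.09, CPSRP54 was the furthest in ap1/cal at -0.90 ± 0.14, and ALB3, the insertase, changed least at -0.04 ± 0.08 and 0.16 ± 0.08.

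In the rest of the nuclear electron transport chain and ATP synthase, 5 of 16 genes were higher and 1 lower in Col-0 and 4 higher and 1 lower in ap1/cal, with medians of 0.13 and 0.07. Ferredoxin gene FD1, the acceptor of photosystem I, rose by 1.68 ± 0.10 and 1.43 ± 0.10, and PGR5, of cyclic electron flow, by 1.31 ± 0.08 and 1.47 ± 0.08. LFNR2, a leaf ferredoxin-NADP reductase, was the one called against them, at -1.15 ± 0.11 and -1.30 ± 0.11, while LFNR1 was at 0.01 ± 0.09 and -0.20 ± 0.09 and ATPC2 changed least in ap1/cal at -0.09 ± 0.12. In the Calvin cycle 6 of 18 genes were higher and 2 lower in Col-0 and 3 higher and 3 lower in ap1/cal (medians 0.33 and 0.32). SBPASE rose furthest in Col-0 at 1.09 ± 0.11, the Rubisco small subunit RBCS1B changed by -0.60 ± 0.16 and -1.38 ± 0.16 and transketolase TKL1 by -0.65 ± 0.12 and -1.33 ± 0.12. PGK1 changed least in Col-0 (0.00 ± 0.09) and RCA least in ap1/cal (-0.01 ± 0.14). RBCS1B, TKL1 and PRK, at 0.13 ± 0.13 and, for the mutant, -0.67 ± 0.13, were called more negative in ap1/cal than in Col-0, at differences of -0.78 ± 0.22 (adjusted p = 0.0249), -0.68 ± 0.16 (adjusted p = 0.00956) and -0.80 ± 0.19 (adjusted p = 0.00873).

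For the plastid-encoded subunits of the same complexes, 1 of 9 was higher and 2 lower in Col-0 and 3 higher and 0 lower in ap1/cal, with medians of -0.78 and 0.68 and none called for the difference. The psbA gene, of the D1 core protein, was the highest in both, at 1.06 ± 0.37 and 2.19 ± 0.37, and psaB, of the photosystem I core, the lowest, at -1.52 ± 0.52 and 0.23 ± 0.52. The summed signal of the 9 genes varied widely between replicates, from 62065 to 162051 for Col-0 Mock, and from 155959 to 376396 in ap1/cal SNP. Since the libraries were selected for poly(A) tails, which few chloroplast transcripts carry, these values do not measure chloroplast RNA levels.

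**Figure D5:**
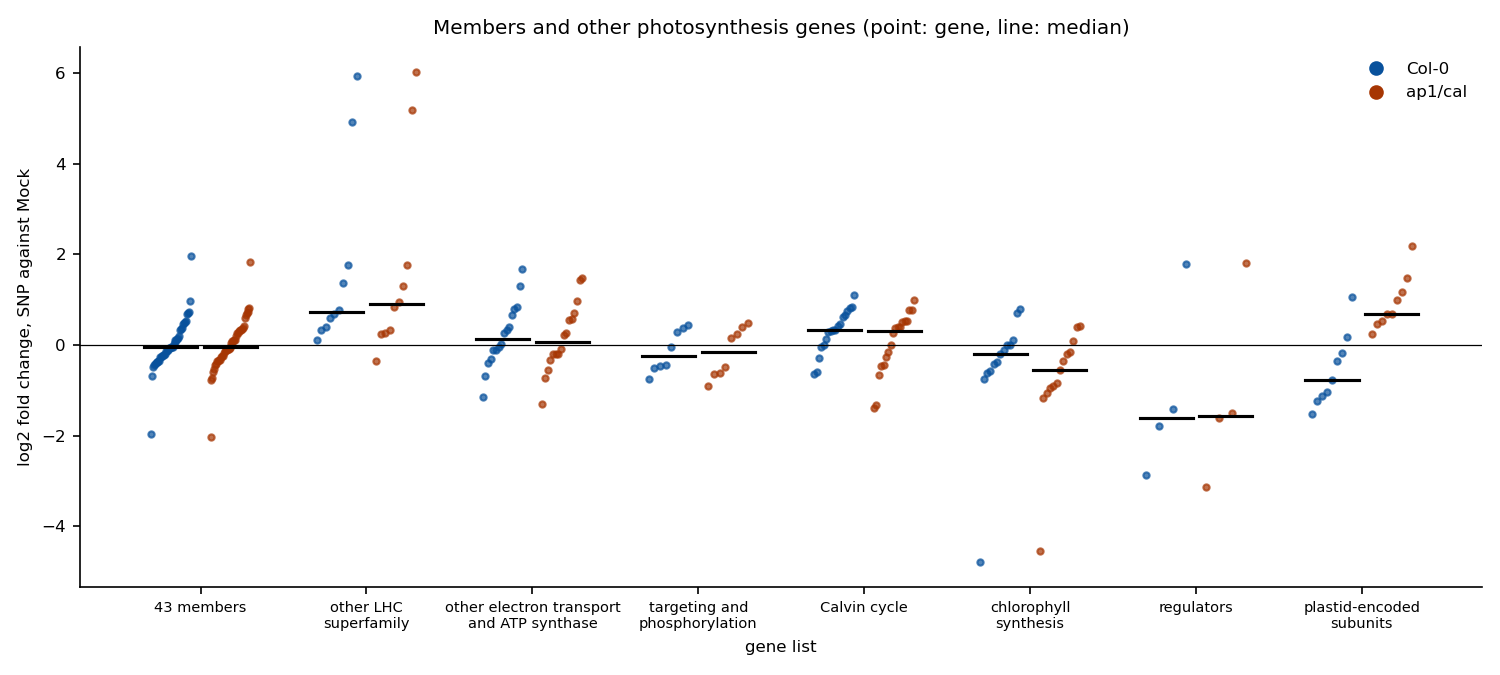
Log2 fold change of SNP against Mock for the 43 members and for 7 lists of other photosynthesis genes, with 1 point per gene and the median as a line, in Col-0 and ap1/cal. The medians of the members lie at -0.05 and -0.04, those of the other light-harvesting superfamily genes at 0.73 and 0.90, and 3 of the 4 regulators lie below -1.4.

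Markers of tissues differed between the same libraries, and for each list the summed signal of its genes is given as the range over the 3 libraries of a group. The shares of all tested genes called, against which these counts are read, were 26.9% higher and 29.1% lower in Col-0 and 29.8% and 33% in ap1/cal. Of 3 epidermis markers 2 were called lower in each genotype, with sums of 15643 to 17998 (Mock) against 10688 to 14060 (SNP) for Col-0 and 15551 to 17377 against 9473 to 11606 for the mutant. Of 3 vasculature markers 2 were called lower in each genotype and 1 higher in the mutant, with sums of 4110 to 4441 against 1865 to 2135 and of 4384 to 4922 against 2507 to 2856. Of 3 guard cell markers 2 were called lower in each genotype, with 555 to 713 against 437 to 493 and 601 to 723 against 432 to 492. These sums did not overlap between Mock and SNP, but the markers of each list did not move together. In both genotypes the remaining marker was higher at an adjusted p below 0.05. PDF1 of the epidermis was at 0.41 and 0.44, MYB60 of the guard cells at 0.34 and 0.45, and APL of the vasculature at 0.36 and 0.63. Most of the vasculature sum was SUC2, at 3459, 3229 and 3519 in Col-0 Mock. Of 9 root markers 1 was higher and 0 lower in Col-0, where the sums overlapped at 2067 to 2946 and 1849 to 2662, and 1 was higher and 4 lower in the mutant, at 2229 to 2616 and 1674 to 2112. Of 5 green tissue markers 3 were higher and 0 lower in Col-0 and 2 higher and 1 lower in the mutant, with 722786 to 811794 against 1101150 to 1185310 and 747723 to 978371 against 1022520 to 1206030, and 4 of these 5 are also in the Calvin cycle list. None of the 5 was at 0 in any group. The part of these shifts in the changes of the members was not tested.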

How the data were processed

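Per the labels and the methods, poly(A) RNA of whole seedlings was made into strand-specific libraries and read to 75 bases, and the processing notes name FastQC, STAR, DESeq2 and the TAIR10 genome without versions. The counter and its use of strand are not given in the sources used here, and the methods describe shoot apices where the labels give seedlings. The authors deposited 1 table per genotype, described as raw counts, but its values are normalized signal. Of the values above 0 and up to 50, 66.8 to 70.2% per library were whole multiples of 1 step within 0.001 of a step. The step is the smallest value that recurred among the genes of a library. No count test was therefore run. The other values up to 50 were not accounted for. Among the members, LHCB2.3, LHCB4.3 and PETC were whole multiples of the step in 0% of libraries.

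Values were taken as log2(value + 1), with a pseudocount of 1, and fitted with limma 3.58.1 (R 4.3.3) as 4 group means over 12 libraries with a mean-variance trend. Genes held by both tables were tested where 3 or more libraries reached a value of 10 (20623 of 21623), with Benjamini-Hochberg adjustment over all of them, and the script was tested on simulated data. Members were named by role, and the full values were given for the largest and the smallest mean change of each role, for paralog pairs and for members called, where "not called in a genotype" was read as called in one genotype alone. The members, lists and pairs were chosen with earlier results of these data known. The labels do not say that the 3 libraries of a group came from separate cultures, and the methods call them biological replicates, so p-values measure the spread between these libraries. Same-numbered Mock and SNP libraries deviated together in ap1/cal (r = 0.12 to 0.17 over genes, each of 3 pairs) but not in Col-0 (-0.05 to 0.06), so a replicate block was fitted as an alternative. Start regions came from the RefSeq annotation of TAIR10.1, and tables were drawn and summed with Python 3.11.15.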

Additional observations from a re-analysis of the deposited data

How the results depend on the processing

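The counts depended on the scaling of the libraries, on the required fold and on the removal of the length and GC trend, and the cause was not tested. The numbers of members higher and lower in Col-0, 5 and 2 as deposited, were 1 and 19 under library-size scaling, 2 and 10 under upper-quartile scaling, 12 and 11 at an adjusted p below 0.05 whatever the fold, 2 and 1 when tested against a 1.5-fold change, and 2 and 6 with the length and GC trend removed. In ap1/cal, where they were 7 and 4, they were 1 and 27, 1 and 14, 15 and 12, 2 and 1, and 2 and 8 in the same order. The median change of the members, -0.05 and -0.04 for Col-0 and ap1/cal, was -0.54 and -0.75 under library-size scaling, -0.31 and -0.43 under upper-quartile scaling, and -0.31 and -0.29 with the trend removed. Under upper-quartile scaling 19.7% and 37.6% of all genes were higher and lower in Col-0 and 20.2% and 44.2% in ap1/cal, under library-size scaling 15.6% and 45.9% and then 15.1% and 54.1%, and with the trend removed 25.1% and 28.0% and then 29.8% and 30.7%. Library-size scaling turned 12 of 19 positive changes negative in Col-0 and 17 of 21 in ap1/cal. In ap1/cal 8 of these were called under one of the scalings, namely LHCA4 (-0.62), LHCB2.1 (-0.010), LHCB2.3 (-0.11), PSAE1 (-0.61), PSAG (-0.63), PSAH1 (-0.050), PSAO (-0.60) and PSBX (-0.67). For the difference of the genotypes library-size scaling gave 3 members more negative, LHCB2.3 (-0.59), LHCB4.2 (-0.59) and PSAD2 (-0.60), and a median of -0.19. Of all genes 13.6% were more negative under it, and their median was -0.23. In the scaling of the authors 0 members were called and the median was 0.02, and 1 was more negative with the adjusted p threshold alone.

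Leaving out 1 library at a time gave 2 to 5 members lower in ap1/cal, with 2 without SNP replicate 2, where PSAD2 (-0.58) and PETE1 (-0.55) lost the required fold, and 5 to 7 higher. In Col-0 all 12 such fits gave 5 higher and 2 lower. A pseudocount of 5, no filter, no trend, each genotype fitted alone and the replicate block left every call of the 43 members as it was, and with the replicate block there were 5 higher and 2 lower in Col-0 and 7 and 4 in ap1/cal. The paralog ratios kept their sign and their side of the threshold without a pseudocount and without any 1 library. For the 7 pairs without overlap, SNP and Mock libraries stay apart whichever library is left out, so that check could hardly fail. The share of signal held by the members moved by less than 1 SD. With 3 libraries per group, leaving out 1 cannot move a mean by 1 SD, so this is no evidence of stability. The 3 libraries per group limit the precision.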
